A study of Mus musculus with 30 samples.

Results

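Transcripts of 10 genes of antigen presentation by the major histocompatibility complex (MHC) were measured in 30 RNA-seq libraries of cells sorted from the mouse stomach. The 10 genes were listed by name, were all found in both deposited expression tables, and are 10 of 25942 named genes there. The files print a dot where the official symbol has a hyphen (H2.K1 for H2-K1). The 5 class I members are the classical heavy chains H2-K1 and H2-D1, the non-classical heavy chain H2-T23 (Qa-1), the light chain B2m (β2-microglobulin) and Tap1, a subunit of the peptide transporter of the endoplasmic reticulum. The 5 class II members are the alpha chain H2-Aa, the beta chains H2-Ab1 and H2-Eb1, the invariant chain Cd74, and Ciita, the transcriptional activator of class II genes. The libraries form 10 groups of 3, and the labels give all mice as WT apart from the reporter. From the antrum (pylorus) of Lgr5-DTR-GFP mice, in which Lgr5-expressing cells carry GFP and a diphtheria toxin receptor, Lgr5-positive and Lgr5-negative cells were sorted. From the corpus of the same line, Lgr5-positive EpCAM-high, Lgr5-positive EpCAM-low and Lgr5-negative cells were sorted. Antrum of Sox2-Tomato mice, whose red reporter marks cells that express the transcription factor Sox2, gave cells of high, low and no reporter signal (Sox2-high, Sox2-low, Sox2-negative), and their corpus gave Sox2-positive cells, which the sort records call Sox2_low, and Sox2-negative cells. Strain, MHC haplotype, age and animals per library are not named in the sources used here. MHC genes vary between haplotypes, and reads of a haplotype unlike the reference may be aligned less often, which limits the levels of H2-Eb1 and the heavy chains, the ratios among them and their orders across both lines.

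Class I molecules sit on nearly all nucleated cells, where a heavy chain and B2m hold a peptide that was cut by the proteasome and moved by the TAP transporter, and they are read by CD8 T cells. Class II molecules are made mainly by dendritic cells, macrophages and B cells, where CIITA switches on the chains and the invariant chain together, and they are read by CD4 T cells. Epithelial cells, those of the gut included, can also make class II, above all under interferon gamma, which raises class I genes too.

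Values are normalized counts (reads per gene divided by a size factor of the library), and levels are compared only within the antrum or the corpus table, which were scaled separately. Values given 3 in a row belong to sort days 1, 2 and 3 of their line and tissue. Libraries held 18602964 to 62312270 reads. The EpCAM-low libraries, at 31942301 to 62312270 reads, had the fewest genes with a read (15014 to 16299), and markers of the enzyme-secreting chief cells made up 40.8 to 48.9% of their normalized total, against 24.6 to 29.5% in corpus Lgr5-negative libraries. Lgr5 was at 2767 to 5727 in antrum Lgr5-positive libraries, against 66.3 to 321 in Lgr5-negative ones, and Sox2 was at 269 to 383 in corpus Sox2-positive libraries, against 28.2 to 72.6 in Sox2-negative ones. In the antrum Sox2 was at 1355 to 3628 in Sox2-high, 374 to 709 in Sox2-low and 36.6 to 442 in Sox2-negative libraries, and the Sox2-low and Sox2-negative ranges overlapped. All 6 epithelial markers had reads in all 10 groups. For the class II genes, library 1 of antrum Sox2-negative cells and library 2 of corpus Sox2-negative cells stood apart from the rest. Class II fold changes against Sox2-negative cells of the same tissue are given with and without them. Correlations and differences of effects between tissues are given with all libraries only.

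Taken as a sum, class I transcripts were found at high levels in all 10 groups. Read per transcript length as RPKM (reads scaled by exon length and library total), the 5 class I members summed to 139 to 289.6 in EpCAM-low libraries. They summed to 542 or more in each library of the other groups, up to 1626 in an antrum Sox2-negative library. Not every member was high: Tap1 was at 0.167 to 4.86 RPKM across the libraries, and H2-T23 at 0.324 to 0.889 in EpCAM-low libraries.

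In the antrum, H2-K1 averaged 23177 ± 3985 in Sox2-high, 14548 ± 2429 in Sox2-low, 19274 ± 5057 in Sox2-negative, 21040.3 ± 5009 in Lgr5-positive and 13114 ± 1294 in Lgr5-negative cells (normalized counts, SD, n = 3 each). The corpus means of H2-K1 were 16277 ± 1650.1 in EpCAM-high, 8639 ± 256 in EpCAM-low, 12157 ± 799 in Lgr5-negative, 10812 ± 1151 in Sox2-positive and 12556 ± 1317 in Sox2-negative cells. H2-K1 was therefore highest in EpCAM-high cells of the corpus, next highest in the Sox2-negative, Lgr5-negative and Sox2-positive cells, whose libraries overlapped, and lowest in EpCAM-low cells, which overlapped with none. H2-D1, the second classical heavy chain, kept the same extremes in the corpus, at 39846 ± 6109.5 in EpCAM-high, 10219 ± 1916 in EpCAM-low, 18171 ± 2839 in Lgr5-negative, 15838 ± 2676 in Sox2-positive and 17152 ± 2268 in Sox2-negative cells. Its antrum means were closer together, at 31019.5 ± 2448 in Sox2-high, 22001 ± 3242 in Sox2-low, 26708 ± 5134 in Sox2-negative, 21444 ± 659.7 in Lgr5-positive and 19997 ± 1322 in Lgr5-negative cells. H2-T23, which presents leader peptides to receptors of natural killer cells, had the widest span of the 3 heavy chains, with corpus means of 2437 ± 344 in EpCAM-high, 229 ± 46.9 in EpCAM-low, 997 ± 20.8 in Lgr5-negative, 595 ± 152 in Sox2-positive and 1735 ± 607 in Sox2-negative cells. Per library total, as RPKM, EpCAM-low cells were lowest for the 3 heavy chains too. The highest H2-K1 and H2-T23 means were then those of the Sox2-negative cells (H2-T23 at 26.9, against 26.2 in EpCAM-high cells). In EpCAM-low cells H2-T23 stood on 132, 50 and 82 reads. In the antrum H2-T23 averaged 2588 ± 233 in Sox2-high, 1441 ± 329 in Sox2-low, 3704 ± 1868 in Sox2-negative, 1474 ± 168 in Lgr5-positive and 1184 ± 105 in Lgr5-negative cells, with the Sox2-negative libraries spread over 1889 to 5621.

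B2m had another order in the corpus, with means of 12092 ± 1031 in EpCAM-high, 16722 ± 2602 in EpCAM-low, 8827 ± 2138 in Lgr5-negative, 4129.5 ± 476 in Sox2-positive and 4154 ± 382 in Sox2-negative cells. EpCAM-low cells, lowest of the 5 corpus groups for the 3 heavy chains, were highest for B2m on the deposited scaling, where their libraries overlapped with no other group. As RPKM the order turned: B2m was at 137, 102 and 227 in EpCAM-low libraries, the lowest mean of the 5 corpus groups (155), with overlap with the Sox2-positive and Sox2-negative libraries. The antrum values of B2m split by library number, which stands for different sort dates in the Lgr5 and the Sox2 line. Library 1 was the highest of its group in all 5 groups. In Lgr5-positive cells it held 34523 normalized counts, against 6620.3 and 6334 in libraries 2 and 3. Tap1, which forms the transporter together with Tap2, averaged 443 ± 177 in Sox2-high, 249 ± 62.7 in Sox2-low, 397 ± 135 in Sox2-negative, 286 ± 118 in Lgr5-positive and 213 ± 55.9 in Lgr5-negative cells of the antrum. Here library 1 was the lowest of its group in all 5 antrum groups. Corpus means of Tap1 were 472 ± 35.7 in EpCAM-high, 284 ± 98.4 in EpCAM-low, 455 ± 61.9 in Lgr5-negative, 278 ± 23.7 in Sox2-positive and 305 ± 60.6 in Sox2-negative cells. As RPKM the lowest corpus mean of Tap1 was that of EpCAM-low cells (0.436), followed by that of Sox2-positive cells (2.17). Across the 79 pairs of neighbours in the order of group means within a table, taken over all members, 23 did not overlap, against 13.2% of such pairs over all genes that reached 10 normalized counts in 3 or more libraries of the table. No such pair can go below p = 0.1 in the two-sided exact permutation test of 3 against 3 libraries, and the smallest BH adjusted value was 0.343.

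Heavy chains of class I are close relatives, so reads can be shared between them. In the GENCODE transcripts of the mouse reference used here, 9.63% of the 50-base stretches of H2-K1, 12.8% of H2-D1 and 14.5% of H2-T23 also occur in other genes, against none for B2m, Cd74, H2-Ab1 and H2-Eb1. No source used here tells how the authors' counting split such reads, so levels of the heavy chains are uncertain to that extent.

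**Figure D1:**
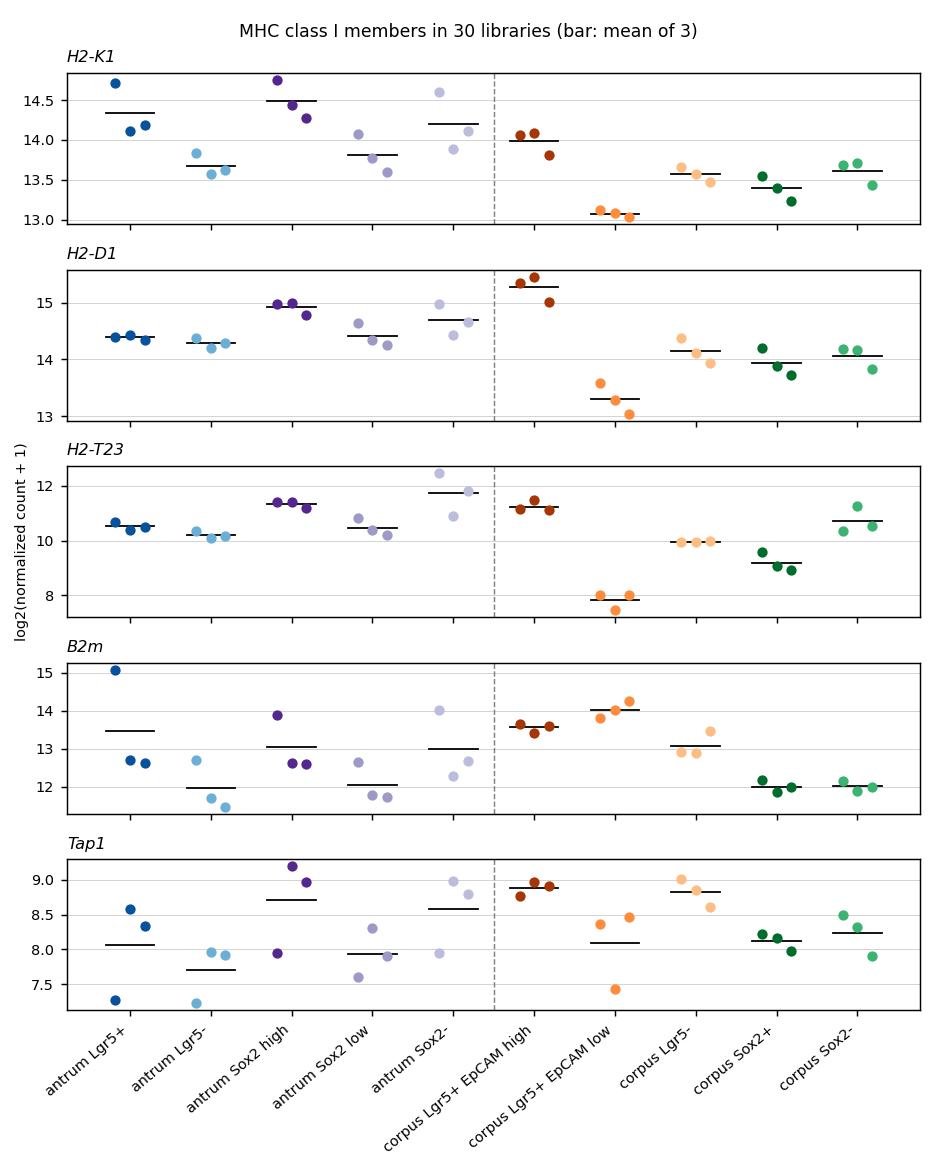
Levels as log2(normalized count + 1) of the 5 class I members in each library of the 10 sorted groups, with the antrum (left of the dashed line) and the corpus (right) scaled separately; points are libraries and bars are group means of the log2 values. EpCAM-low libraries are lowest in the corpus for H2-K1, H2-D1 and H2-T23 (H2-T23 at 175 to 257 normalized counts) and, on the deposited scaling but not per library total, highest for B2m (14277 to 19457).

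Class II transcripts were low in 8 of the 10 groups and higher in the Sox2-negative cells of both tissues. Cd74, which fills the groove of new class II molecules until they reach the endosome, was at 50.3 to 173 in Sox2-high and 31.6 to 219 in Sox2-low libraries of the antrum, against 10212, 738 and 463 normalized counts in Sox2-negative libraries. Lgr5-positive libraries of the antrum held 27.4 to 239 and Lgr5-negative libraries 53.3 to 184. In the corpus Cd74 was at 155 to 226 in Sox2-positive libraries, against 740.2, 8682 and 851 in Sox2-negative libraries. The EpCAM-high (17.0 to 203), EpCAM-low (40.6 to 105) and Lgr5-negative libraries (282 to 408) of the corpus were low too. In both tables every Sox2-negative library was above every library of the other 4 groups for Cd74, H2-Aa, H2-Ab1 and H2-Eb1, and 1 library in each table stood far above its fellows. These other groups include both reporter lines, and the share of all genes with this order was not counted.

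The alpha and beta chains showed the same picture. H2-Ab1 lay between 8.68 and 105 in the 4 other antrum groups, against 4541, 321 and 199 in antrum Sox2-negative libraries. In the corpus H2-Ab1 ranged from 0 to 185 in the 4 other groups, with no read in library 3 of EpCAM-high and of EpCAM-low cells, against 269, 3654 and 326 in Sox2-negative libraries. H2-Aa was at most at 43.6 in the 4 other groups of the antrum, against 2329.8, 153 and 70.2 in Sox2-negative libraries. Corpus values of H2-Aa were at most 85.8 in the 4 other groups, against 171, 1938 and 192 in Sox2-negative libraries. H2-Eb1 reached at most 55.4 in the 4 other antrum groups and 83.6 in the 4 other corpus groups, against 2369, 162 and 126 in antrum and 159.8, 1801 and 194 in corpus Sox2-negative libraries. For all 3 chains, library 1 of the antrum and library 2 of the corpus Sox2-negative cells were the highest.

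Ciita was close to the detection limit. Lgr5-positive cells of the antrum had 14, 16 and 0 reads of it and Lgr5-negative cells 5, 7 and 0. Sox2-high and Sox2-low libraries of the antrum had at most 9 reads, against 59, 7 and 7 reads in Sox2-negative libraries. In the corpus, Sox2-positive libraries had 1, 3 and 5 reads, against 2, 91 and 8 in Sox2-negative libraries. All 6 Lgr5-positive libraries of the corpus had 0 reads of Ciita, each of which allows up to 3 reads at its depth, and Lgr5-negative libraries had 0, 6 and 4. Ciita passed the filter on low values (10 or more normalized counts in 3 or more libraries) in none of the 8 comparisons below, so 9 of the 10 members were tested there.

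**Figure D2:**
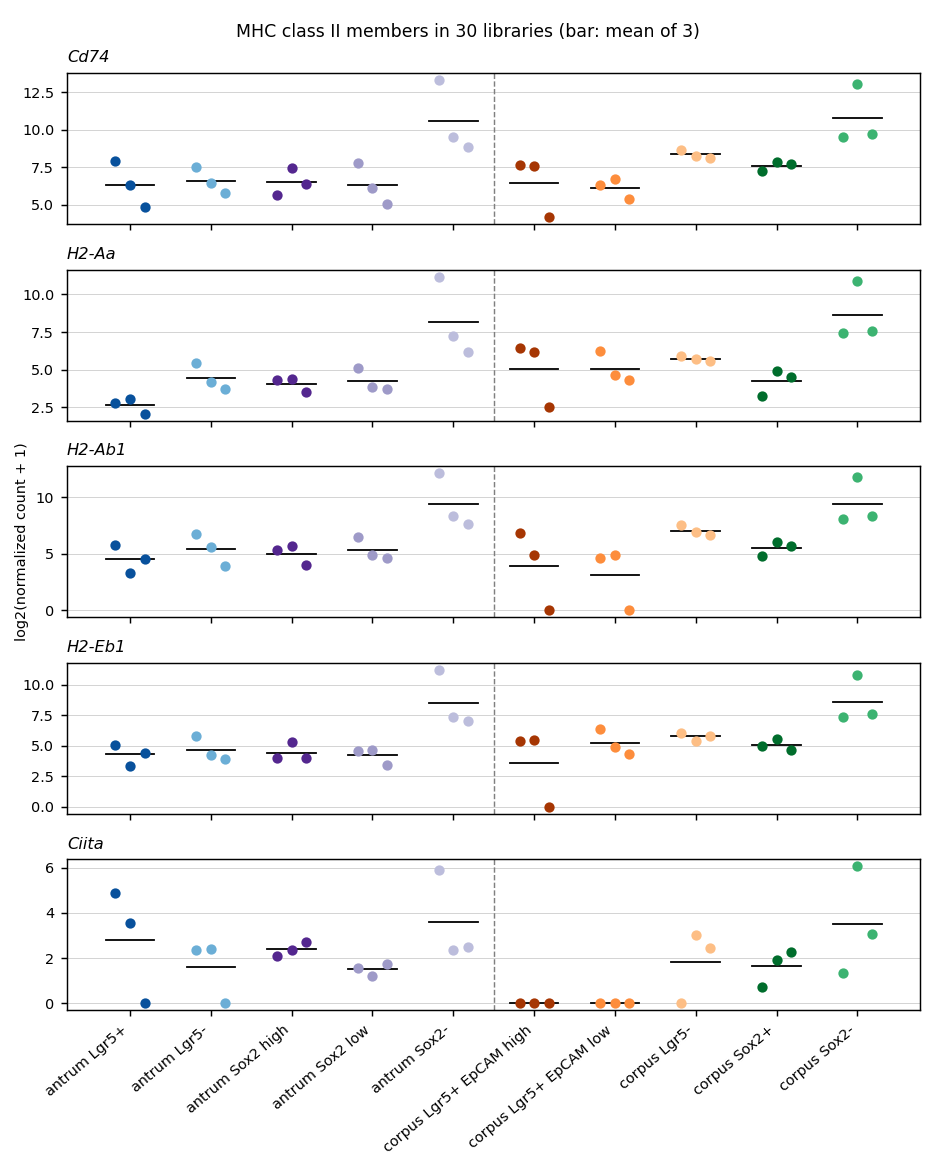
Levels as log2(normalized count + 1) of the 5 class II members in each library of the 10 sorted groups, antrum left and corpus right of the dashed line; points are libraries and bars are group means of the log2 values. Sox2-negative libraries of both tissues lie above the other groups for Cd74, H2-Aa, H2-Ab1 and H2-Eb1, and 1 library in each tissue (Cd74 at 10212 normalized counts in the antrum and 8682 in the corpus) lies far above the other 2.

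Markers of macrophages and dendritic cells moved with the class II genes. In the antrum the sum of their 17 markers was 149 to 321 normalized counts in Sox2-high and 138 to 203 in Sox2-low libraries, against 6264, 617 and 686 in Sox2-negative libraries. It was 96.8 to 156 in Lgr5-positive and 94.1 to 238 in Lgr5-negative libraries. Corpus sums were 80.9 to 247 in Sox2-positive libraries, against 1353, 9253 and 841 in Sox2-negative libraries, and 134 to 356 in EpCAM-high, 83.6 to 196 in EpCAM-low and 219 to 363 in Lgr5-negative libraries. The sums were highest in the same 2 libraries as Cd74, and all 17 markers had reads in both Sox2-negative groups. Between 7 and 16 of the 17 had reads in the other 8 groups, and Flt3, a receptor of dendritic cells, was at 0 in all 8. The class II sum of a library divided by its marker sum was 0.164 to 3.87 in these 8 groups, 1.26 to 3.11 in antrum Sox2-negative and 0.992 to 1.87 in corpus Sox2-negative libraries. Over the 15 libraries of a table the log2 sums had a Pearson correlation of 0.933 in the antrum and 0.845 in the corpus, as a description of libraries that share groups and sort days. The sum of 9 general leukocyte markers did not set the Sox2-negative libraries apart. In the antrum it was 5193 to 6411 in Sox2-negative, 1478 to 3333 in Sox2-high, 3626 to 7032 in Sox2-low and 5350 to 7332 in Lgr5-positive libraries. In the corpus it was 6041 to 10145 in Sox2-negative, 8702 to 11961 in Sox2-positive and 26420 to 39520 in EpCAM-high libraries. B cell markers summed to 15.7 to 23.7 and 11.5 to 39.9 in the antrum and corpus Sox2-negative libraries. The part of such cells in the class II levels was not tested, and in bulk libraries fewer cells of a type and less RNA per cell cannot be told apart.

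**Figure D3:**
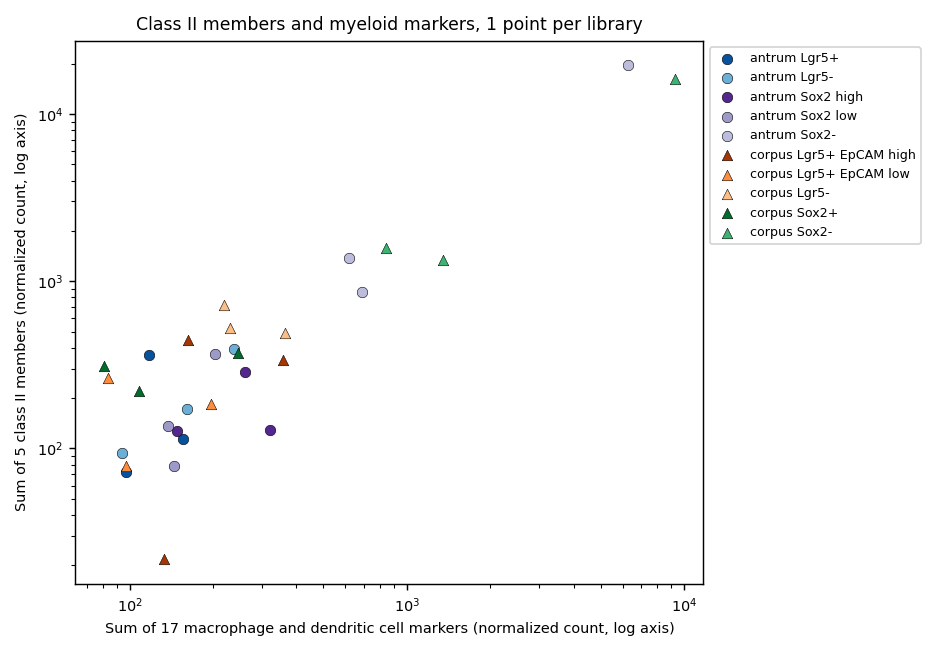
Sum of the 5 class II members against the sum of the 17 macrophage and dendritic cell markers (normalized counts, log axes), 1 point a library, with circles for the antrum and triangles for the corpus. The 3 Sox2-negative libraries of each tissue are above and to the right of the others, with marker sums of 617 to 6264 in the antrum and 841 to 9253 in the corpus.

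Set against each other per transcript length, class I exceeded class II in every library. The summed RPKM of the 5 class I members was 315 to 618 times that of the 5 class II members in antrum Lgr5-positive cells, and 112 to 328 times in Lgr5-negative cells. In Sox2-high cells the ratio was 194 to 693, among Sox2-low cells 128 to 449, and the Sox2-negative cells had 4.37 to 57.3. Corpus ratios were 180.3 to 2897 in EpCAM-high, 205 to 746 in EpCAM-low and 60.4 to 94.2 in Lgr5-negative cells. Sox2-positive cells of the corpus had 73.4 to 142 and Sox2-negative cells 2.12 to 26.0, so the Sox2-negative cells had the lowest ratios in both tissues, without overlap.

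Within class I the members did not keep a fixed proportion. B2m divided by the sum of H2-K1 and H2-D1, per length, was 2.88 ± 0.784 in EpCAM-low cells, against 0.941 ± 0.333 in corpus Lgr5-negative cells (SD, n = 3 each), and 0.682 ± 0.136 in EpCAM-high cells. The 3 EpCAM-low libraries (2.14, 2.80 and 3.70) were above every other corpus library. In the antrum, library 1 of the Lgr5-positive cells was at 2.29, and all other libraries lay between 0.275 and 0.928. H2-D1 over H2-K1 was 2.78 ± 0.163 in EpCAM-high cells and 1.34 ± 0.213 in EpCAM-low cells, against 1.70 ± 0.155 in Lgr5-negative cells. A ratio within a library does not depend on its scaling.

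**Figure D4:**
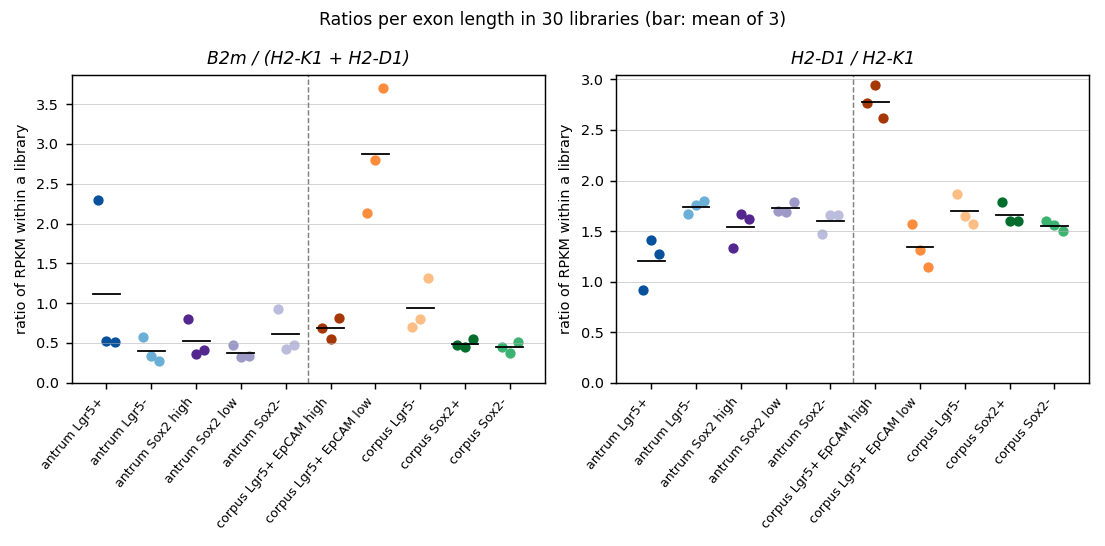
Ratios of class I members per transcript length (RPKM) in each library of the 10 groups, B2m over the sum of H2-K1 and H2-D1 and H2-D1 over H2-K1; points are libraries and bars are group means. Corpus EpCAM-low libraries stand at 2.14 to 3.70 for B2m over the heavy chains, and library 1 of antrum Lgr5-positive cells at 2.29. The EpCAM-high libraries stand at 2.62 to 2.95 for H2-D1 over H2-K1.

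Promoter sequence is shown for 2 pairs of genes. H2-D1 and B2m are partners in 1 molecule, and the ratio of B2m to the sum of H2-K1 and H2-D1 in EpCAM-low cells stood apart from the other corpus groups. H2-Aa and H2-Eb1 were highest in the same libraries. Each is the 200 bases before the gene's annotated start, from RefSeq on GRCm38.p6, read 5′ to 3′ on the gene's strand, at chr17:35262894-35263093 (plus strand) for H2-D1, chr2:122147487-122147686 (plus) for B2m, chr17:34287824-34288023 (minus) for H2-Aa and chr17:34305667-34305866 (plus) for H2-Eb1. Capitals mark matches to the motifs named below.
H2-D1: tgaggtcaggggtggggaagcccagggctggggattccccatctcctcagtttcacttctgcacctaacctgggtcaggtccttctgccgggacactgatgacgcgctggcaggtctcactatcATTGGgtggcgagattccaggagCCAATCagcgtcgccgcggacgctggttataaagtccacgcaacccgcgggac
B2m: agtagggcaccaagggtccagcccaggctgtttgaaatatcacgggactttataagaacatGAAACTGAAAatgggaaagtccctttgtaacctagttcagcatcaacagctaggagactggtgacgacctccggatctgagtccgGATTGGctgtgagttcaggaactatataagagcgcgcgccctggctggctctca
H2-Aa: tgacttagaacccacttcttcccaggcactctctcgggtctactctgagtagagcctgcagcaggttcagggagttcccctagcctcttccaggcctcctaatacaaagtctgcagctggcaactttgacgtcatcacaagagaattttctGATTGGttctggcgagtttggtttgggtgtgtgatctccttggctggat
H2-Eb1: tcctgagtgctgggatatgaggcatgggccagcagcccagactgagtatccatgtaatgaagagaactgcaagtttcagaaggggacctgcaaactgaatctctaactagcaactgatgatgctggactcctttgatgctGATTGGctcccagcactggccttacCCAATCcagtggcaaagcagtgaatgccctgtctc

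Promoters of 7 of the 10 members were matched (H2-K1, H2-D1, H2-T23, B2m, Tap1, H2-Aa and H2-Eb1). The letters GATTGG, the core of the Y box known from MHC promoters, were found on either strand in 6 of the 7, against 12.9% of the 32851 annotated promoter windows of the same length. The overlapping letters CCAAT were found in the same 6 and in 29.3% of all windows. Counted back from the start, GATTGG lay at -54 to -49 in B2m, at -49 to -44 in H2-Aa and at -60 to -55 in H2-Eb1. Its reverse, CCAATC, lay at -53 to -48 in H2-D1 and at -35 to -30 in H2-Eb1. In H2-D1, H2-K1 and H2-T23 only the reverse was found. H2-K1 had it at -6 to -1 in 1 of its 2 windows. Whether a match is the Y box of its gene was not tested. GAAA, 2 bases of any kind and GAAA again, the core of interferon response elements, was found in B2m (-139 to -130) and H2-T23 and in 2.27% of all windows. TTCNNNGAA, the gamma-activated site, was in none of the 7 and in 5.49% of all windows. A match is a run of letters and no evidence of binding.

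The groups were then compared with limma on log2(normalized count + 1), with Benjamini-Hochberg (BH) adjustment over all genes tested and a threshold of 0.05. Fold changes are log2 values with their standard error (SE). Libraries sorted on the same day share a number, and a second fit, with sort day as a block, is named where it changes a call. The comparisons of a line within a tissue share libraries, so they are not independent of each other. Further genes of the pathway come from 6 lists: loading and regulation of class I, other class I heavy chains and class I-like molecules, loading and regulation of class II, co-stimulation and checkpoint ligands, the interferon gamma pathway and the type I interferon response.

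**Figure D5:**
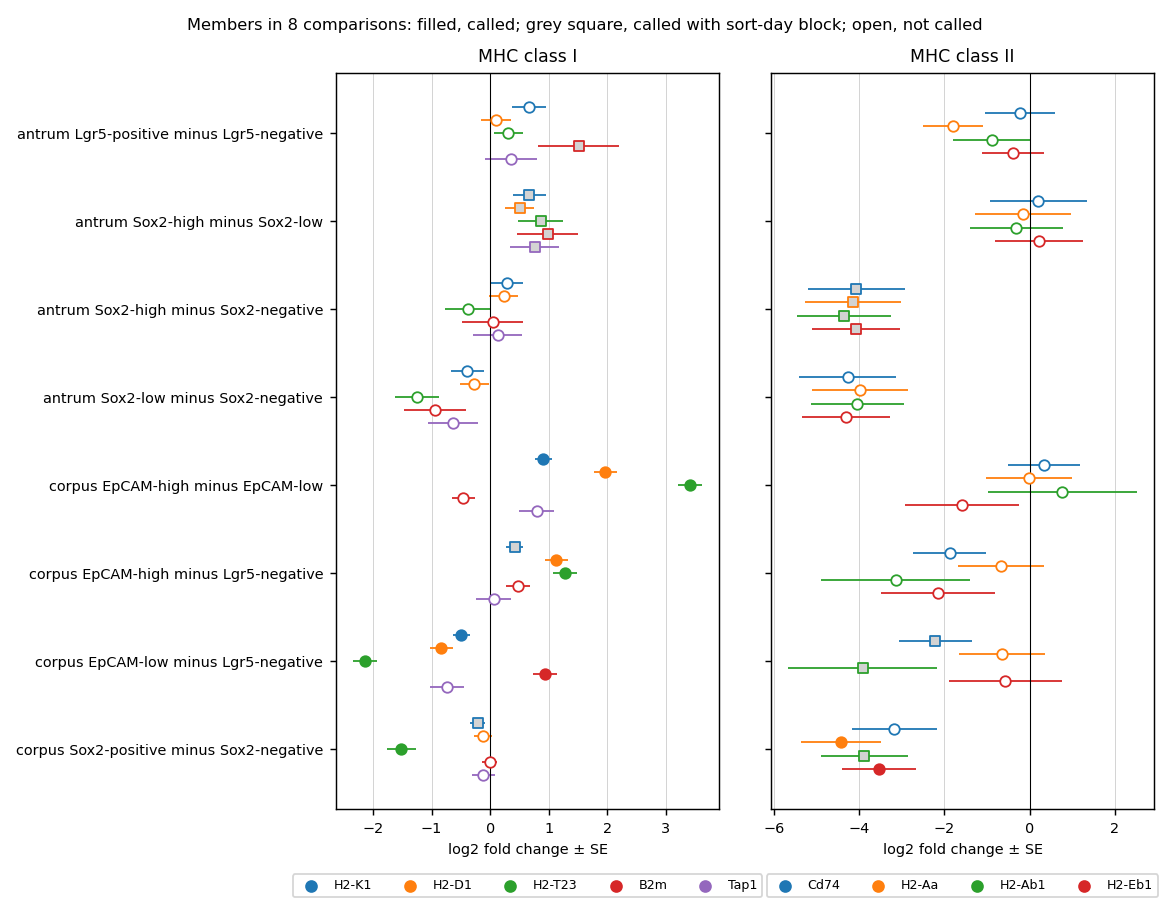
Log2 fold changes of the tested members in the 8 comparisons (limma on log2(normalized count + 1)), with SE as error bars, class I left and class II right. Filled circles are called by the fit without the block, grey squares only with the sort day as a block, and open circles by neither. In the corpus H2-T23 runs from -2.14 (EpCAM-low over Lgr5-negative) to 3.42 (EpCAM-high over EpCAM-low), and all 4 tested class II members lie below 0 in each comparison with Sox2-negative cells.

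Antrum Lgr5-positive cells were set against Lgr5-negative cells, which asks what marks the stem cell reporter at the base of the antral gland. None of the 9 tested members passed by limma, as none of the 14047 genes did (0% called). An unadjusted p under 0.05 was found for 1 member, H2-Aa, and edgeR and DESeq2 called 0 members (2.73% of genes by DESeq2). H2-K1 was at 26803, 17726 and 18592 in Lgr5-positive cells and at 14586, 12153 and 12603 in Lgr5-negative cells. The groups did not overlap, as was so for 14.6% of the genes tested, and the log2 fold change was 0.66 (SE 0.29, adjusted p = 0.698). H2-T23 did not overlap either (0.31). B2m was at 34523, 6620.3 and 6334 in Lgr5-positive cells and at 6626, 3327 and 2842 in Lgr5-negative cells. It was higher in Lgr5-positive cells on each of 3 sort days, most of all on day 1, and the groups overlapped. With the sort day as a block B2m rose by 1.51 (adjusted p = 0.0361, SE 0.28), the only member among the 3.18% of genes called by that fit; without the block its adjusted p was 0.712. H2-Aa was at 6.08, 7.34 and 3.23 in Lgr5-positive cells, on 3, 11 and 4 reads, and at 43.6, 17.6 and 11.9 in Lgr5-negative cells, with a log2 fold change of -1.81 (SE 0.70, adjusted p = 0.629). Cd74 differed by -0.23 (SE 0.83, adjusted p = 0.983). On log2(CPM + 1), which moves the median of all genes to -0.39, H2-D1, H2-T23 and Tap1 had fold changes of -0.33, -0.12 and -0.04 in place of 0.10, 0.31 and 0.36. In the authors' deposited table of this comparison, which runs Lgr5-negative over Lgr5-positive, B2m was at -1.89 with an adjusted p of 0.613.

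Of the 63 genes of the pathway lists that were tested, 0 passed in this comparison (8 with an unadjusted p under 0.05, 0 by edgeR and 4 by DESeq2), and their median fold change was 0.17, against -0.04 for all genes tested. With the block, which called 3.18% of all genes, 5 rose and none fell. They were the immunoproteasome subunit Psmb8 (499 ± 249 in Lgr5-positive cells, 200.1 ± 76.6 in Lgr5-negative cells, 1.27, adjusted p = 0.0312) and H2-DMb1, a chain of the peptide editor of class II (205 ± 82.4 and 52.0 ± 9.13, 1.90, 0.0326). The others were the interferon regulatory factor Irf8 (959 ± 182 and 269 ± 64.2, 1.84, 0.0185), the class I-like gene Azgp1 (3.28, 0.0283) and the lysosomal protease Lgmn (1.10, 0.0283). Chief cell markers made up 10.2 to 19.0% of the normalized total in Lgr5-positive libraries and 0.817 to 1.72% in Lgr5-negative libraries. Between Lgr5-positive and Lgr5-negative libraries the marker sums of 2 of 11 cell type lists did not overlap. Higher in Lgr5-positive libraries were those of parietal cells (24693 to 70481 in Lgr5-positive and 484 to 1860.5 in Lgr5-negative libraries) and chief cells (2184004 to 7184004 and 177322 to 349817). Their part in these values was not tested.

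Antrum Sox2-high cells had more of all 5 class I members than Sox2-low cells on every sort day, while each tested class II member was higher on some days and lower on others. None of the 9 tested members passed by limma without the block, where 7.9% of 15064 genes did (2 members with an unadjusted p under 0.05, 0 by edgeR and 0 by DESeq2). With the sort day as a block, all 5 class I members rose and none of the 4 tested class II members passed, in a fit that called 30.4% of all genes. H2-K1 was at 27562, 22196 and 19775 in Sox2-high cells and at 17194, 14030.3 and 12421 in Sox2-low cells. H2-T23 was at 2713, 2732 and 2319 in Sox2-high cells and at 1809.5, 1336 and 1176 in Sox2-low cells. For both, as for H2-D1, every Sox2-high library was above every Sox2-low library, which was so for 18.1% of all genes tested. B2m was at 15127, 6361 and 6200.3 in Sox2-high cells and at 6381, 3545 and 3422 in Sox2-low cells, with the groups overlapping and library 1 highest in both. The fold changes were 0.67 for H2-K1 (adjusted p = 0.189 without and 0.00772 with the block), 0.50 for H2-D1 (0.27 and 0.0274) and 0.86 for H2-T23 (0.214 and 0.0439). For B2m the fold change was 0.98 (0.308 and 0.00503) and for Tap1 0.76 (0.327 and 0.0274). Cd74 differed by 0.20 (SE 1.14, adjusted p = 0.948), with 50.3, 173 and 82.7 in Sox2-high cells and 219, 67.4 and 31.6 in Sox2-low cells. In the authors' deposited table of this comparison the log2 fold changes were 0.65 for H2-K1 and 1.02 for B2m, with adjusted p-values of 0.315 and 0.694.

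Of 65 tested genes of the pathway lists 5 rose and 1 fell in Sox2-high cells, close to the share of all genes called (7.9%, and 6.14% as higher), with a median of 0.45, against 0.00 for all genes. Of 15 tested other class I genes, 3 rose: the heavy chain H2-Q2 (1204 ± 149.9 in Sox2-high and 323 ± 37.9 in Sox2-low cells, 1.89, adjusted p = 0.0217), H2-M3, which presents formylated peptides (698 ± 137 in Sox2-high and 222 ± 77.4 in Sox2-low cells, 1.69, adjusted p = 0.038), and the lipid-presenting Cd1d1 (1.35, adjusted p = 0.045). The protease Ctsl (16163 ± 2654 in Sox2-high and 3133 ± 547 in Sox2-low cells, 2.37, adjusted p = 0.0108) and the co-stimulatory ligand Icosl (649 ± 185 in Sox2-high and 118 ± 37.3 in Sox2-low cells, 2.47, adjusted p = 0.00987) rose as well. Ifngr1, the ligand-binding chain of the interferon gamma receptor, fell (1447 ± 116 in Sox2-high and 2796 ± 291 in Sox2-low cells, -0.95, adjusted p = 0.0458). None of the 12 tested class I loading genes passed without the block. With it, 6 of them rose and 1 fell, where 17.3% of all genes were called as higher. Among the 6 were Psmb8 (1.97, adjusted p = 0.00324), the transporter subunit Tap2 (1.25, 0.0217) and the immunoproteasome subunit Psmb9 (1.04, 0.0035), and the chaperone Calr fell (-0.37, 0.0384). Between Sox2-high and Sox2-low libraries the marker sums of 6 of 11 cell type lists did not overlap. Higher in Sox2-high libraries were those of T and NK cells (61.7 to 184 in Sox2-high and 0 to 2.89 in Sox2-low libraries), endocrine cells (2727696 to 3485928 and 349693 to 752211) and endothelium and stroma (664 to 1108 and 198 to 383). Lower in Sox2-high libraries were those of leukocytes (1478 to 3333 in Sox2-high and 3626 to 7032 in Sox2-low libraries), epithelium (143705 to 185268 and 254559 to 315711) and tuft cells (99.0 to 3009 and 6573 to 19888). Cd3e and Nkg7, defining markers of T and NK cells, were at 0 in both groups. The part of these cells in the class I difference was not tested.

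Sox2-high cells of the antrum had lower class II values than Sox2-negative cells, while class I fold changes lay on both sides of 0. Without the block no tested member passed by limma (2.15% of 15064 genes called; 4 members with an unadjusted p under 0.05, 0 by edgeR and 3 by DESeq2, which called 6.39% of genes). Cd74 was at 50.3, 173 and 82.7 in Sox2-high cells and at 10212, 738 and 463 in Sox2-negative cells. H2-Ab1 was at 39.4, 50.5 and 15.4 in Sox2-high cells and at 4541, 321 and 199 in Sox2-negative cells. The groups did not overlap for any of the 4 tested class II members, as was so in this direction for 6.63% of genes. Log2 fold changes were -4.06 (SE 1.14, adjusted p = 0.125) for Cd74, -4.14 (SE 1.13, adjusted p = 0.115) for H2-Aa, -4.35 (SE 1.10, adjusted p = 0.0914) for H2-Ab1 and -4.08 (SE 1.03, adjusted p = 0.0928) for H2-Eb1. With the sort day as a block all 4 fell (adjusted p = 0.0326, 0.0192, 0.00943 and 0.0278), with 9.71% of genes called. Library 1 of the Sox2-negative cells had the highest macrophage and dendritic cell markers. Without it the block fit called 9.55% of genes. In that fit -3.34 for H2-Ab1, -2.93 for H2-Aa and -2.73 for H2-Eb1 still passed (adjusted p = 0.013, 0.0229 and 0.0269). Cd74 did not (-2.85, adjusted p = 0.058). The class I fold changes ran from -0.38 (H2-T23) to 0.28 (H2-K1), none called. Of 65 pathway genes 1 passed, Icosl, which rose (649 ± 185 in Sox2-high and 127 ± 56.2 in Sox2-negative cells, 2.38, adjusted p = 0.0206; no call without library 1 of the Sox2-negative cells unless the block was fitted). Between Sox2-high and Sox2-negative libraries the marker sums of 7 of 11 cell type lists did not overlap. Higher in Sox2-high libraries were those of endothelium and stroma (664 to 1108 in Sox2-high and 308 to 563 in Sox2-negative libraries). Lower in Sox2-high libraries were those of leukocytes (1478 to 3333 in Sox2-high and 5193 to 6411 in Sox2-negative libraries), B cells (4.09 to 12.3 and 15.7 to 23.7), macrophages and dendritic cells (149 to 321 and 617 to 6264), epithelium (143705 to 185268 and 203277 to 283014), tuft cells (99.0 to 3009 and 8203 to 23977) and parietal cells (506 to 5404 and 9225 to 30289.7). Their part in these values was not tested.

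Sox2-low cells too had lower class II values than Sox2-negative cells. The 4 tested class II members had fold changes of -4.27 (Cd74), -3.98 (H2-Aa), -4.04 (H2-Ab1) and -4.30 (H2-Eb1), without overlap between the groups, as was so in this direction for 9.03% of genes. Without library 1 of the Sox2-negative cells the fold changes were -2.89 for Cd74, -2.49 for H2-Aa, -2.66 for H2-Ab1 and -2.95 for H2-Eb1 (adjusted p = 0.952 for each). No member passed by limma with or without the block, nor did any gene without it (0% of 15064 called). An unadjusted p under 0.05 was found for 5 members, edgeR called 0 and DESeq2 3 (1.52% of genes). Cd74 was at 219, 67.4 and 31.6 in Sox2-low cells, and its adjusted p was 0.505. H2-T23 was at 1809.5, 1336 and 1176 in Sox2-low cells and at 5621, 1889 and 3600.2 in Sox2-negative cells, a fold change of -1.25 (SE 0.38, adjusted p = 0.584) without overlap. The other class I members were lower in Sox2-low cells on all 3 sort days, by fold changes of -0.94 (B2m) to -0.27 (H2-D1). Of the 65 pathway genes tested 0 passed by limma (10 with an unadjusted p under 0.05, 0 by edgeR and 2 by DESeq2), with a median of -0.49, against 0.01 for all genes. Between Sox2-low and Sox2-negative libraries the marker sums of 3 of 11 cell type lists did not overlap. Lower in Sox2-low libraries were those of T and NK cells (0 to 2.89 in Sox2-low and 2.99 to 67.2 in Sox2-negative libraries), macrophages and dendritic cells (138 to 203 and 617 to 6264) and parietal cells (1070.2 to 6616 and 9225 to 30289.7). Their part in these values was not tested.

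Of the Lgr5-positive cells of the corpus, EpCAM-high cells had the higher class I heavy chains. H2-T23 was at 2258, 2833 and 2219.7 in EpCAM-high cells and at 257, 175 and 256 in EpCAM-low cells. H2-D1 was at 41441, 44999.8 and 33097 in EpCAM-high cells and at 12237, 9997 and 8423 in EpCAM-low cells, and H2-K1 was at 17054, 17396 and 14382 in EpCAM-high cells and at 8884, 8659 and 8373 in EpCAM-low cells. The groups did not overlap for any class I member, as was so for 41.4% of all genes tested. These 3 of 9 tested members rose, where 31.8% of 14847 genes were called, 17.5% as higher: H2-T23 by 3.42 (SE 0.20, adjusted p = 2.56e-05), H2-D1 by 1.97 (SE 0.20, adjusted p = 0.000141) and H2-K1 by 0.91 (SE 0.14, adjusted p = 0.00124). B2m was at 12903, 10931 and 12441 in EpCAM-high cells and at 14277, 16432 and 19457 in EpCAM-low cells. It was on the other side of 0, at -0.46 (SE 0.20, adjusted p = 0.104), and Tap1 was at 0.79 (SE 0.29, adjusted p = 0.0659). On log2(CPM + 1), where the median of all genes was 1.43, B2m turned to 1.56 and the 3 heavy chains kept their direction. None of the 4 tested class II members passed, with fold changes from -1.58 (H2-Eb1, 0.41 on CPM) to 0.77 (H2-Ab1). Cd74 was at 203, 192 and 17.0 in EpCAM-high cells and at 79.7, 105 and 40.6 in EpCAM-low cells, so the groups overlapped.

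In the pathway lists more genes rose than fell, with 25 of 61 tested genes higher and 3 lower in EpCAM-high cells, and a median of 1.27, against 0.07 for all genes. Of all genes 31.8% were called, 17.5% as higher. Class I loading genes rose in 5 of 12 cases, among them Psmb8 (227 ± 32.8 in EpCAM-high and 24.5 ± 2.68 in EpCAM-low cells, 3.16, adjusted p = 0.000588), Tap2 (733 ± 138 in EpCAM-high and 207 ± 17.7 in EpCAM-low cells, 1.81, adjusted p = 0.000436) and Psmb9 (1.60, adjusted p = 0.0067). Other class I genes rose in 5 of 15 cases, such as H2-M3 (2.33, adjusted p = 0.00668), H2-Q10 (2.06, adjusted p = 0.017) and H2-T24, which was at 24.8 ± 7.28 in EpCAM-high cells and had no read in EpCAM-low cells. The interferon gamma list held 9 genes that rose and 1 that fell, of 14. The signalling inhibitor Socs1 (243 ± 7.63 in EpCAM-high and 4.54 ± 5.40 in EpCAM-low cells, 6.08, adjusted p = 0.000596) and the guanylate-binding proteins Gbp7 (4.97, adjusted p = 0.00747) and Gbp3 (4.75, adjusted p = 0.0014) rose most, and Irf8 fell (108 ± 75.0 in EpCAM-high and 399 ± 171 in EpCAM-low cells, -2.18, adjusted p = 0.0392). Of 9 type I interferon genes 5 rose, among them Ifit1 (79.8 ± 29.6 in EpCAM-high and 1.17 ± 2.02 in EpCAM-low cells, 5.55, adjusted p = 0.000672), the regulator Irf7 (2294 ± 477 in EpCAM-high and 111 ± 92.6 in EpCAM-low cells, 5.21, adjusted p = 0.00287) and Oasl2 (3.55, adjusted p = 0.000682). In EpCAM-low libraries 3 reads came to 5.83 to 10.5 normalized counts. The EpCAM-low means of Socs1 and Ifit1 lay below that, so the sizes of their fold changes are uncertain. The checkpoint ligand Cd274 (PD-L1) rose (149 ± 124 in EpCAM-high and 23.0 ± 21.9 in EpCAM-low cells, 2.90, adjusted p = 0.034). Of 9 class II loading genes 2 fell, Ctsl (-1.58, adjusted p = 0.000451) and Rfxap, a subunit of the RFX complex of class II promoters (-0.71, adjusted p = 0.0267). Between EpCAM-high and EpCAM-low libraries the marker sums of 6 of 11 cell type lists did not overlap. Higher in EpCAM-high libraries were those of leukocytes (26420.0 to 39520.3 in EpCAM-high and 5328 to 7441 in EpCAM-low libraries), B cells (373 to 829 and 6.25 to 64.2), epithelium (325592 to 404671 and 99038 to 105007) and tuft cells (158693 to 283642 and 1349 to 9905). Lower in EpCAM-high libraries were those of parietal cells (41503 to 641389 in EpCAM-high and 815564 to 2167889.7 in EpCAM-low libraries) and chief cells (5105668 to 8089763 and 40772993 to 91738961). Cd53 and Cd48 of the leukocyte list and Pax5 of the B cell list were at 0 in both groups. The part of these cell types in the differences was not tested.

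Against Lgr5-negative cells of the corpus, EpCAM-high cells had higher H2-D1 and H2-T23. H2-D1 was at 41441, 44999.8 and 33097 in EpCAM-high cells and at 21255, 17589.5 and 15667 in Lgr5-negative cells. H2-T23 was at 2258, 2833 and 2219.7 in EpCAM-high cells and at 983, 987 and 1021 in Lgr5-negative cells. The groups overlapped for neither gene, as was so in this direction for 23% of genes, and both rose, H2-D1 by 1.13 (SE 0.20, adjusted p = 0.00473) and H2-T23 by 1.28 (SE 0.20, adjusted p = 0.00271), 2 of 9 tested members where 21.1% of genes were called. H2-K1 stood at 0.42 (SE 0.14, adjusted p = 0.062), and rose with the block (adjusted p = 0.048, with 24% of genes called). B2m stood at 0.48 (SE 0.20, adjusted p = 0.119) and Tap1 at 0.06 (SE 0.29, adjusted p = 0.911). Cd74 was at 203, 192 and 17.0 in EpCAM-high cells and at 408, 303 and 282 in Lgr5-negative cells, without overlap (25.2% of genes in this direction), with a fold change of -1.88 (SE 0.85, adjusted p = 0.149). None of the tested class II members was called by limma with or without the block.

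Pathway genes went both ways here, with 7 of 61 higher and 6 lower (median 0.32, against -0.06 for all genes). Together they were close to the share of all genes called (21.1%). The immunoproteasome subunit Psmb10 (1822 ± 350.2 in EpCAM-high and 855 ± 166 in Lgr5-negative cells, 1.09, adjusted p = 0.0104), the proteasome activator subunit Psme1 (0.96, adjusted p = 0.0307) and Tapbp (tapasin), which tethers class I to the transporter (0.70, adjusted p = 0.0203), rose. The chaperones Canx (-0.67, adjusted p = 0.0295) and Pdia3 (-0.51, adjusted p = 0.038) fell. H2-Q2 rose (1271 ± 83.7 in EpCAM-high and 344 ± 49.3 in Lgr5-negative cells, 1.89, adjusted p = 0.000595), and Hfe, a class I-like regulator of iron uptake, fell (-2.99, adjusted p = 0.0299). Of the interferon lists Igtp (1.31, adjusted p = 0.033), Irf1 (1.05, adjusted p = 0.0398) and Rsad2 (295 ± 47.3 in EpCAM-high and 36.0 ± 6.95 in Lgr5-negative cells, 3.01, adjusted p = 0.01) rose and Ifngr1 fell (1677 ± 773 in EpCAM-high and 3889 ± 159 in Lgr5-negative cells, -1.30, adjusted p = 0.00881). Rfxap (-0.91, adjusted p = 0.0132) and Icosl (-2.60, adjusted p = 0.0437) fell. Between EpCAM-high and Lgr5-negative libraries the marker sums of 7 of 11 cell type lists did not overlap. Higher in EpCAM-high libraries were those of leukocytes (26420.0 to 39520.3 in EpCAM-high and 5614 to 7576 in Lgr5-negative libraries), B cells (373 to 829 and 7.94 to 15.3), T and NK cells (3.22 to 10.9 and 0 to 2.34), epithelium (325592 to 404671 and 244875 to 270482), tuft cells (158693 to 283642 and 10657 to 21024) and endothelium and stroma (298 to 546 and 128 to 134). Lower in EpCAM-high libraries were those of endocrine cells (7581 to 38498 in EpCAM-high and 225799 to 408045 in Lgr5-negative libraries). Pax5 of the B cell list and Cd3e, Nkg7 and the granzymes of the T and NK cell list were at 0 in both groups. The part of these cells in the differences was not tested.

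EpCAM-low cells had lower heavy chains and, on the deposited scaling, higher B2m than Lgr5-negative cells. H2-T23 was at 257, 175 and 256 in EpCAM-low cells and at 983, 987 and 1021 in Lgr5-negative cells. B2m was at 14277, 16432 and 19457 in EpCAM-low cells and at 7666, 7521 and 11295 in Lgr5-negative cells. The groups overlapped for neither gene, and lay in opposite directions, as did 28.7% of all genes on the lower and 21.1% on the higher side. Of 9 tested members 3 fell and 1 rose, where 30.9% of 14847 genes were called, and the median fold change of all genes was -0.19. H2-T23 fell, at -2.14 (SE 0.20, adjusted p = 0.000289), as did H2-D1, at -0.84 (SE 0.20, adjusted p = 0.0125), and H2-K1, at -0.49 (SE 0.14, adjusted p = 0.0258). B2m rose by 0.94 (SE 0.20, adjusted p = 0.00731). Tap1 was at -0.73 (SE 0.29, adjusted p = 0.0853). Cd74 was at 79.7, 105 and 40.6 in EpCAM-low cells and at 408, 303 and 282 in Lgr5-negative cells, without overlap, with a fold change of -2.21 (SE 0.85, adjusted p = 0.0744). With the block Cd74 and H2-Ab1 fell too (adjusted p = 0.0306 and 0.0303, with 34% of genes called), and H2-Ab1 had 12, 8 and 0 reads in EpCAM-low libraries. On log2(CPM + 1), which moves the median of all genes to -1.49, all 9 tested members had negative fold changes and B2m turned to -1.05, so the direction of B2m depends on the scaling, while the ratio of B2m to the heavy chains does not. H2-K1 lost its call without any 1 library of the Lgr5-negative group or without library 1 or 3 of the EpCAM-low group (adjusted p = 0.0525 to 0.099), and H2-D1 without library 1 of the Lgr5-negative group (0.0572).

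In the pathway lists 21 of 61 tested genes fell and 3 rose in EpCAM-low cells (median -1.11). Of all genes 30.9% were called in either direction, with a median of -0.19. Of 12 class I loading genes 4 fell, Psmb8 (24.5 ± 2.68 in EpCAM-low and 112 ± 46.6 in Lgr5-negative cells, -2.07, adjusted p = 0.00616), Psmb9 (-1.27, adjusted p = 0.0203), Tap2 (207 ± 17.7 in EpCAM-low and 493 ± 79.3 in Lgr5-negative cells, -1.24, adjusted p = 0.00397) and Pdia3 (-0.94, adjusted p = 0.0021), and Psme1 rose (0.88, adjusted p = 0.0318). Other class I genes fell in 4 of 15 cases, among them H2-M3 (25.8 ± 12.4 in EpCAM-low and 155 ± 15.2 in Lgr5-negative cells, -2.68, adjusted p = 0.00414) and H2-Q7 (-3.36, adjusted p = 0.0359), and Cd1d1 rose (259 ± 152 in EpCAM-low and 54.6 ± 22.3 in Lgr5-negative cells, 2.15, adjusted p = 0.011). H2-T24 had no read in EpCAM-low libraries and was at 11.4 ± 2.03 in Lgr5-negative ones. The interferon gamma list had 9 genes that fell of 14 and none that rose, with Gbp3 (-4.64, adjusted p = 0.00231), Socs1 (4.54 ± 5.40 in EpCAM-low and 60.2 ± 13.8 in Lgr5-negative cells, -4.05, adjusted p = 0.00585) and Gbp7 (-4.02, adjusted p = 0.0205) furthest. Of 9 type I interferon genes 3 fell, Ifit1 (1.17 ± 2.02 in EpCAM-low and 55.7 ± 20.0 in Lgr5-negative cells, -5.03, adjusted p = 0.00179), Irf7 (-2.78, adjusted p = 0.0491) and Oasl2 (-2.19, adjusted p = 0.00912). The EpCAM-low means of Socs1 and Ifit1 lay below 3 reads (5.83 to 10.5 normalized counts in these libraries). The sizes of their fold changes are therefore uncertain, and H2-T24 in Lgr5-negative cells was close to that limit. In class II loading H2-DMb1 fell (-2.14, adjusted p = 0.0495) and Ctsl rose (4729.6 ± 1013 in EpCAM-low and 2289 ± 481 in Lgr5-negative cells, 1.05, adjusted p = 0.0047). Between EpCAM-low and Lgr5-negative libraries the marker sums of 9 of 11 cell type lists did not overlap. Higher in EpCAM-low libraries were those of T and NK cells (3.50 to 43.7 in EpCAM-low and 0 to 2.34 in Lgr5-negative libraries), parietal cells (815564 to 2167889.7 and 56942 to 77423), chief cells (40772993 to 91738961 and 7802468 to 10434709) and endothelium and stroma (256 to 993 and 128 to 134). Lower in EpCAM-low libraries were those of macrophages and dendritic cells (83.6 to 196 in EpCAM-low and 219 to 363 in Lgr5-negative libraries), epithelium (99038 to 105007 and 244875 to 270482), tuft cells (1349 to 9905 and 10657 to 21024), endocrine cells (8801 to 14179 and 225799 to 408045) and pit and mucous cells (89053 to 335348 and 490609.9 to 1478482). Of the 17 markers of macrophages and dendritic cells, 10, Csf1r and Adgre1 among them, were at 0 in EpCAM-low libraries. The part of these cells in the differences was not tested.

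Corpus Sox2-positive cells had lower class II chains and lower H2-T23 than Sox2-negative cells. H2-Aa was at 8.56, 29.3 and 21.6 in Sox2-positive cells and at 171, 1938 and 192 in Sox2-negative cells. H2-Eb1 was at 29.6, 45.9 and 24.7 in Sox2-positive cells and at 159.8, 1801 and 194 in Sox2-negative cells. The Sox2-negative libraries were all above the Sox2-positive ones, library 2 by far. H2-T23 was at 768, 535 and 482 in Sox2-positive cells and at 1293, 2427 and 1486 in Sox2-negative cells, again without overlap (15.1% of genes in this direction). These 3 of 9 tested members fell, where 9.73% of 14034 genes were called, H2-Aa at -4.42 (SE 0.94, adjusted p = 0.0253), H2-Eb1 at -3.53 (SE 0.87, adjusted p = 0.0451) and H2-T23 at -1.52 (SE 0.25, adjusted p = 0.00456). H2-Ab1 was at -3.88 (SE 1.02, adjusted p = 0.0712) and Cd74 at -3.17 (SE 1.01, adjusted p = 0.151). With the block H2-Ab1 (adjusted p = 0.0437) and H2-K1 (-0.22, 0.0484) fell as well, with 16.4% of genes called. The 4 class I members other than H2-T23 had fold changes of -0.22 (H2-K1) to -0.01 (B2m), and B2m was at 4640.0, 3699 and 4049.9 in Sox2-positive cells and at 4563, 3806 and 4093 in Sox2-negative cells.

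Without library 2 of the Sox2-negative cells all tested class II members and H2-T23 passed by limma, where 5.37% of 13611 genes were called. Their fold changes were smaller in size: -3.28 for H2-Aa (adjusted p = 0.00434), -2.68 for H2-Ab1 (0.00332), -2.41 for H2-Eb1 (0.00397), -2.02 for Cd74 (0.000624) and -1.25 for H2-T23 (0.00616). With 1 Sox2-positive library left out H2-Aa and H2-Eb1 lost their calls (adjusted p = 0.0533 to 0.102 and 0.0643 to 0.184, H2-Eb1 also without library 3 of the Sox2-negative cells).

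Of 63 tested pathway genes 4 fell and none rose (median -0.20, against 0.01 for all genes), below the share of all genes called (9.73%). The protease Ctss, which degrades the invariant chain (6.33 ± 6.42 in Sox2-positive and 275 ± 345 in Sox2-negative cells, -5.09, adjusted p = 0.0251), and Ctsl (1421 ± 189 in Sox2-positive and 3010.1 ± 521 in Sox2-negative cells, -1.08, adjusted p = 0.00205) are in the class II loading list, where 2 of 9 fell, and 1 of 9 without library 2 of the Sox2-negative cells. Tapbp (-0.60, adjusted p = 0.0306) and Cd274 (-1.25, adjusted p = 0.0323) fell with all libraries, and neither passed by limma without that one. Between Sox2-positive and Sox2-negative libraries the marker sums of 6 of 11 cell type lists did not overlap. Higher in Sox2-positive libraries were those of tuft cells (23259 to 44275 in Sox2-positive and 9833 to 16750.2 in Sox2-negative libraries) and chief cells (2315519 to 5579129 and 1726236 to 2296867). Lower in Sox2-positive libraries were those of T and NK cells (0 to 0.658 in Sox2-positive and 1.88 to 146 in Sox2-negative libraries), macrophages and dendritic cells (80.9 to 247 and 841 to 9253), endocrine cells (65631 to 76556 and 460306 to 1025323) and endothelium and stroma (159.6 to 221 and 303 to 561). Their part in these differences was not tested.

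Whether the reporter had another effect in the antrum than in the corpus was tested on reads of both tissues rescaled together. For the Lgr5 effect, with both corpus Lgr5-positive groups averaged, 0 of 9 tested members passed (1.12% of 15539 genes called by limma; 2 members with an unadjusted p under 0.05, 0 by edgeR), with H2-K1 at 0.67 (SE 0.24, adjusted p = 0.238). For the Sox2 effect 0 of 10 passed (1.93% of 16564 genes; 0 members with an unadjusted p under 0.05, 0 by edgeR), with H2-T23 at 0.70 (SE 0.44, adjusted p = 0.849). The 2 corpus groups that were averaged had heavy chain differences of opposite sign from their Lgr5-negative cells, so each was also set against the antrum alone, a split chosen after these genes were seen and no independent support for them. The antrum Lgr5 effect exceeded that of EpCAM-low cells for H2-T23 by 2.49 (SE 0.29, adjusted p = 0.000979) and for H2-K1 by 1.19 (SE 0.25, adjusted p = 0.0191), where 3.99% of genes were called. Against EpCAM-high cells no member passed (4.04% of genes called by limma), with H2-D1 at -1.11 (SE 0.31, adjusted p = 0.0578) and H2-T23 at -1.05 (SE 0.29, adjusted p = 0.0599), which passed with the block (adjusted p = 0.00945 and 0.0325, with 9.37% of genes called).

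Over the 15 libraries of a table, the 10 pairs of class II members had Pearson correlations of log2 levels with a median of 0.922 in the antrum and 0.850 in the corpus. The 10 class I pairs had medians of 0.516 and 0.628, ranging from -0.303 to 0.897 and from -0.294 to 0.962. The 25 pairs across classes had medians of 0.396 and 0.0198, with ranges of -0.114 to 0.739 and -0.665 to 0.403. In the antrum H2-T23 correlated with Cd74 at 0.730 and with Tap1 at 0.305. B2m had correlations below 0 with the 3 heavy chains in the corpus, furthest with H2-T23 (-0.294). Among 11179 genes with a mean of at least 50, those most like Cd74 in both tables (antrum and corpus correlation) were C1qb (0.842 and 0.893), Ctss (0.839 and 0.779), Kcnmb2 (0.780 and 0.779), C1qa (0.847 and 0.745) and Lyz2 (0.797 and 0.722). C1qa, C1qb and Lyz2 are on the macrophage and dendritic cell list, and Ctss is on the class II loading list. Most like H2-K1 were Psmb8 (0.928 and 0.940), Rras (0.942 and 0.910), Psmb9 (0.904 and 0.875), Epcam (0.871 and 0.921) and Nmi (0.854 and 0.876), of which Psmb8 and Psmb9 are on the class I loading list. These are descriptions over libraries that share groups, sort days and scaling.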

How the data were processed

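RNA was extracted from sorted cells with RNeasy kits and made into libraries with the Clontech SMARTer v4 low-input kit, per the labels' protocols. Per the submitters' processing notes, mm9 and the tools STAR, HTSeq, edgeR and DESeq2 were used, with no versions; strand use is not named in the sources used here. The deposited tables hold a signal per gene, gene counts that the authors divided by a size factor of the library, antrum and corpus apart: whole counts (recovered reads) came back from at least 99.99% of values within 0.01 of a read. Of 26400 features per table, 433 without a name (0.0290 to 0.482% of reads) and 25 whose symbol had become a date (0.0132 to 0.106%) were left out. The authors' deposited comparison tables give log2 fold changes with SE and p-values, and their values are quoted as such for the antrum only.

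Genes that reached 10 normalized counts in 3 or more libraries of a fit were tested with limma 3.58.1 (R 4.3.3, trend and robust) on log2(normalized count + 1), with no block, the groups of a line within a tissue in 1 fit. Alternatives were a block for sort day, edgeR 4.0.16 (quasi-likelihood, TMM) and DESeq2 1.42.0 on recovered reads, TMM or CPM scaling, a pseudocount of 5, no filter, all libraries of a tissue and each library left out. The replicate numbers pair the samples, since the labels give 1 sort date for each of 12 combinations of line, tissue and number; same-day deviations correlated at 0.126 to 0.673 in the antrum, 0.221 to 0.366 in the corpus Sox2 and -0.0563 to 0.159 in the corpus Lgr5 comparisons. No label ties the libraries of a group to different animals, and p-values then measure only how these libraries spread, which may be technical. Intervals and floors cover counting error only. All 10 members are named, with up to 3 genes per list and direction of the largest fold change among those called (with the block where the fit without it called none), and the 5 genes most like Cd74 and H2-K1. RPKM used exon lengths from the GENCODE annotation of GRCm38.p6, matched by symbol. The fits were tested on simulated data. Members and lists were chosen with earlier results of these data known.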

Additional observations from a re-analysis of the deposited data

Results flagged for a closer look

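For 2 members the fold change of antrum Lgr5-positive over Lgr5-negative cells lay above that of corpus EpCAM-low over Lgr5-negative cells. The 2 fold changes had opposite signs, and the antrum one was not called for either member. The test was of the difference itself, and 3.99% of genes were called by it. This split of the corpus groups was chosen after their heavy chains were seen to lie on opposite sides, so the test is no independent support, and with both corpus groups averaged 0 of 9 members passed. Antrum Lgr5-positive cells were not split by EpCAM, so the reporter and the EpCAM gate cannot be told apart here. For H2-T23 the log2 fold changes on the deposited values were 0.31 in the antrum and -2.14 in the corpus, and on reads rescaled together their difference was 2.49 (SE 0.29, adjusted p = 0.000979) by limma with BH adjustment. For H2-K1 they were 0.66 and -0.49, with a difference of 1.19 (SE 0.25, adjusted p = 0.0191). On the deposited scaling both genes were, on each of 3 sort days, higher in antrum Lgr5-positive and lower in EpCAM-low than in Lgr5-negative cells. As RPKM, H2-T23 was lower in antrum Lgr5-positive than in Lgr5-negative cells on day 1 (15.2 against 20.5). Marker sums that moved with the EpCAM-low group are given in the report, and their part in the difference was not tested.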

How the results depend on the processing

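For the 27 of 72 tested member fold changes that limma called with or without the block, 400 of 401 alternative values kept their direction, all but B2m in EpCAM-low over Lgr5-negative cells, at -1.05 on CPM. Of the 45 called by neither, CPM turned 7 (H2-D1, H2-T23 and Tap1 in antrum Lgr5, B2m in Sox2-high over Sox2-negative, and B2m, H2-Aa and H2-Eb1 in EpCAM-high over EpCAM-low cells), TMM 2 and edgeR 6. A replicate block for sort day moved the number of members called to 1 in antrum Lgr5 (0 without it), 5 in Sox2-high over Sox2-low (0), 4 in Sox2-high over Sox2-negative (0) and 5 in corpus Sox2 (3), and edgeR with that block called 1, 5, 3 and 5; it moved no other count by more than 1.5 times, while H2-K1 in EpCAM-high and Cd74 and H2-Ab1 in EpCAM-low over Lgr5-negative cells gained a call, where edgeR with the block called 2 and 5. DESeq2 called 3 in both antrum comparisons with Sox2-negative cells and 1 in corpus Sox2, where edgeR called 5, no filter gave 1 and CPM 1. CPM called 7 in EpCAM-high over EpCAM-low (3) and 9 in EpCAM-low over Lgr5-negative (4). CPM also moved the median of all genes in the direction of these members. Counts given here without the share of all genes called are not read as results about the members. All libraries of a tissue in 1 fit called 3 in Sox2-high over Sox2-negative, 5 in EpCAM-high over EpCAM-low and 4 in EpCAM-high over Lgr5-negative (2). The cause of these moves was not tested. With 1 library left out, calls ranged from 2 to 4 in EpCAM-low over Lgr5-negative and from 1 to 5 in corpus Sox2. Fits with the block and without 1 library were chosen after the data were seen. Without library 1 of the antrum Sox2-negative cells they called 5 in Sox2-high over Sox2-low (35.2% of genes) and 3 in Sox2-high over Sox2-negative (9.55%). Without library 2 of the corpus Sox2-negative cells 5 were called in corpus Sox2 (9.79%). The Lgr5 difference between tissues called 2 with EpCAM-low cells alone (0 with both groups). Depth limits Ciita most, with 0 to 91 reads a library.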
